A study of Mus musculus with 12 samples.

Results

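Drug efflux pumps and xenobiotic receptors were followed in the colorectum of mice as 9 genes, Abcb1a, Abcb1b, Abcg2, Abcc1, Abcc2, Abcc3, Abcc4, Nr1i2 and Nr1i3, which were taken by symbol from a table of 17734 genes. All 9 were present in the table, and all 9 passed the filter on low values, a mean FPKM of 0.1 or more across the 12 mice, which kept 15315 genes for testing. RNA of male C57BL/6 mice was sequenced in 4 groups of 3: normal mice on water, normal mice receiving berberine (BBR), colitis mice given dextran sulfate sodium (DSS), and colitis mice that received both. DSS, a polymer that injures the bowel lining, was given for 7 days. BBR, a plant alkaloid, was given by gavage for 6 days according to the treatment protocol, while the treatment field of the labels reads 7 days for every group. The protocol calls the tissue colon, the tissue field colorectum and the methods rectum, and it was taken as bulk tissue. The labels do not say whether mice shared a cage or a litter, so p-values cover the spread between these mice only.

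Efflux pumps of the ABC (ATP-binding cassette) family use ATP to move drugs, plant compounds and conjugated metabolites out of cells. In the gut, P-glycoprotein (encoded in mice by Abcb1a and Abcb1b) and Abcg2, the breast cancer resistance protein, sit on the luminal side of epithelial cells and return absorbed compounds to the lumen, and berberine is a known substrate of P-glycoprotein. Nr1i2 encodes PXR and Nr1i3 encodes CAR, nuclear receptors that sense foreign compounds, pair with the retinoid X receptor and switch on pumps and drug-metabolizing enzymes, best known from liver and intestine.

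Values are FPKM, read counts scaled for transcript length and for the total of the mouse, and so are comparable between genes. Differences are log2 fold changes of FPKM + 0.1 from limma, fitted over all 12 mice, with Benjamini-Hochberg adjustment over all 15315 genes and a limit of 0.05. Epcam, an epithelial marker, was at 780.04 to 1200.54 FPKM in every mouse. The 9 epithelial markers together summed to 9180 to 12700 FPKM in normal mice and 8740 to 12100 FPKM in colitis mice, and to 7400 to 11800 and 6460 to 9900 FPKM when these received BBR. The sum of 7 smooth muscle markers was 1630 to 3060 FPKM in normal mice and 71.3 to 656 FPKM in colitis mice, and with BBR 2300 to 4880 and 476 to 3460 FPKM, the last above every normal mouse on water. That of 5 granulocyte markers was 0.26 to 2.03 and 45 to 492 FPKM, and with BBR 0.36 to 2.54 and 2.51 to 217 FPKM. In the 4 mice numbered 4, 1 in each group, the column totals were 482194 to 504337 against 696286 to 765876 in the other 8, so these mice stand apart and results of the 9 genes that turn on them are given without them. In bulk tissue, fewer cells of a type and less RNA per cell cannot be told apart.

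Abcb1a and Abcb1b, the neighbouring P-glycoprotein genes on chromosome 5, differed most in level, and Abcc2 and Nr1i3 had the highest Pearson's r among the pairs of these genes over the 12 mice. The 250 bases before the start of each of these 4 genes are therefore shown, from RefSeq on GRCm38.p6 at chr5:8566841-8567090, chr5:8797897-8798146, chr19:43782058-43782307 and chr1:171213720-171213969, all on the plus strand. Capitals mark AGGTCA or AGTTCA, hexamers that nuclear receptors of this class can bind, searched on both strands.
Abcb1a: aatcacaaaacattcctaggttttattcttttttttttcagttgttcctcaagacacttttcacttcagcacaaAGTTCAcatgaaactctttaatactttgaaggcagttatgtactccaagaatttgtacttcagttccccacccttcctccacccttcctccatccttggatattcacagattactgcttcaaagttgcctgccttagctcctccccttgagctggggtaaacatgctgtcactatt
Abcb1b: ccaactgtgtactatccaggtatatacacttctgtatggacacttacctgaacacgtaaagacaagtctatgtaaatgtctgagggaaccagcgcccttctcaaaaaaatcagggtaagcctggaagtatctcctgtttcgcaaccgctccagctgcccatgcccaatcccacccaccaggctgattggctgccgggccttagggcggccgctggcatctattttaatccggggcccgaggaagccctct
Abcc2: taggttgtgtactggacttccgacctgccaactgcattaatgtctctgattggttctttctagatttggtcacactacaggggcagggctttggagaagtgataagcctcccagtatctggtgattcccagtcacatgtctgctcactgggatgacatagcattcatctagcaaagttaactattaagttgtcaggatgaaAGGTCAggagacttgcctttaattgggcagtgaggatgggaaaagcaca
Nr1i3: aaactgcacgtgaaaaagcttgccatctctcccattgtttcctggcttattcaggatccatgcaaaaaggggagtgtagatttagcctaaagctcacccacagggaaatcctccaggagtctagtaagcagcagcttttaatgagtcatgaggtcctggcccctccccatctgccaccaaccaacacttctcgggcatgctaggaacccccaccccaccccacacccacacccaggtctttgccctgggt
AGTTCA was found once before Abcb1a, with its first base at position −176 from the start, and AGGTCA once before Abcc2, at position −49. Neither hexamer was in the windows of Abcb1b and Nr1i3. One or the other occurred in 24.2% of 32851 mouse promoter windows of this length, so a match is common. The Abcb1b window held CCAAT on each strand and GGGCGG once, and the Abcb1a window held neither. CCAAT was in 33.8% of all windows and GGGCGG in 32.7%. The bases G and C made up 40.4% of the Abcb1a window and 52.8% of that of Abcb1b, with a median of 52.4% over all windows. Of the 9 genes, 7 had an entry among these promoters, and Abcc1 and Abcc3 had none.

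In normal mice Abcb1a was the highest of the 9 genes, with a mean of 258 ± 84.5 FPKM (SD, n = 3). Its values lay above all those of the next gene, Abcg2. Abcg2 (60.8 ± 6.81), Abcc3 (52.3 ± 5.92) and Nr1i2 (47.3 ± 8.98 FPKM, SD, n = 3 each) followed, and each overlapped with its neighbour in this order. Abcc1 stood lower at 9.31 ± 3.65 FPKM. Nr1i3 (4.23 ± 0.62) and Abcc4 (3.76 ± 0.446 FPKM) overlapped with each other, Abcc2 was at 0.693 ± 0.215 FPKM and Abcb1b was lowest at 0.33 ± 0.135 FPKM (SD, n = 3 each). By the mean over all 12 mice, Abcb1a ranked above 96.7% of the tested genes, Abcg2 above 91.8% and Abcb1b above 12%. The highest of the 12 values was 25.4 times the lowest for Abcc2, 15.6 times for Nr1i3 and 8.11 times for Abcb1a, against 1.86 times for Nr1i2.

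**Figure D1:**
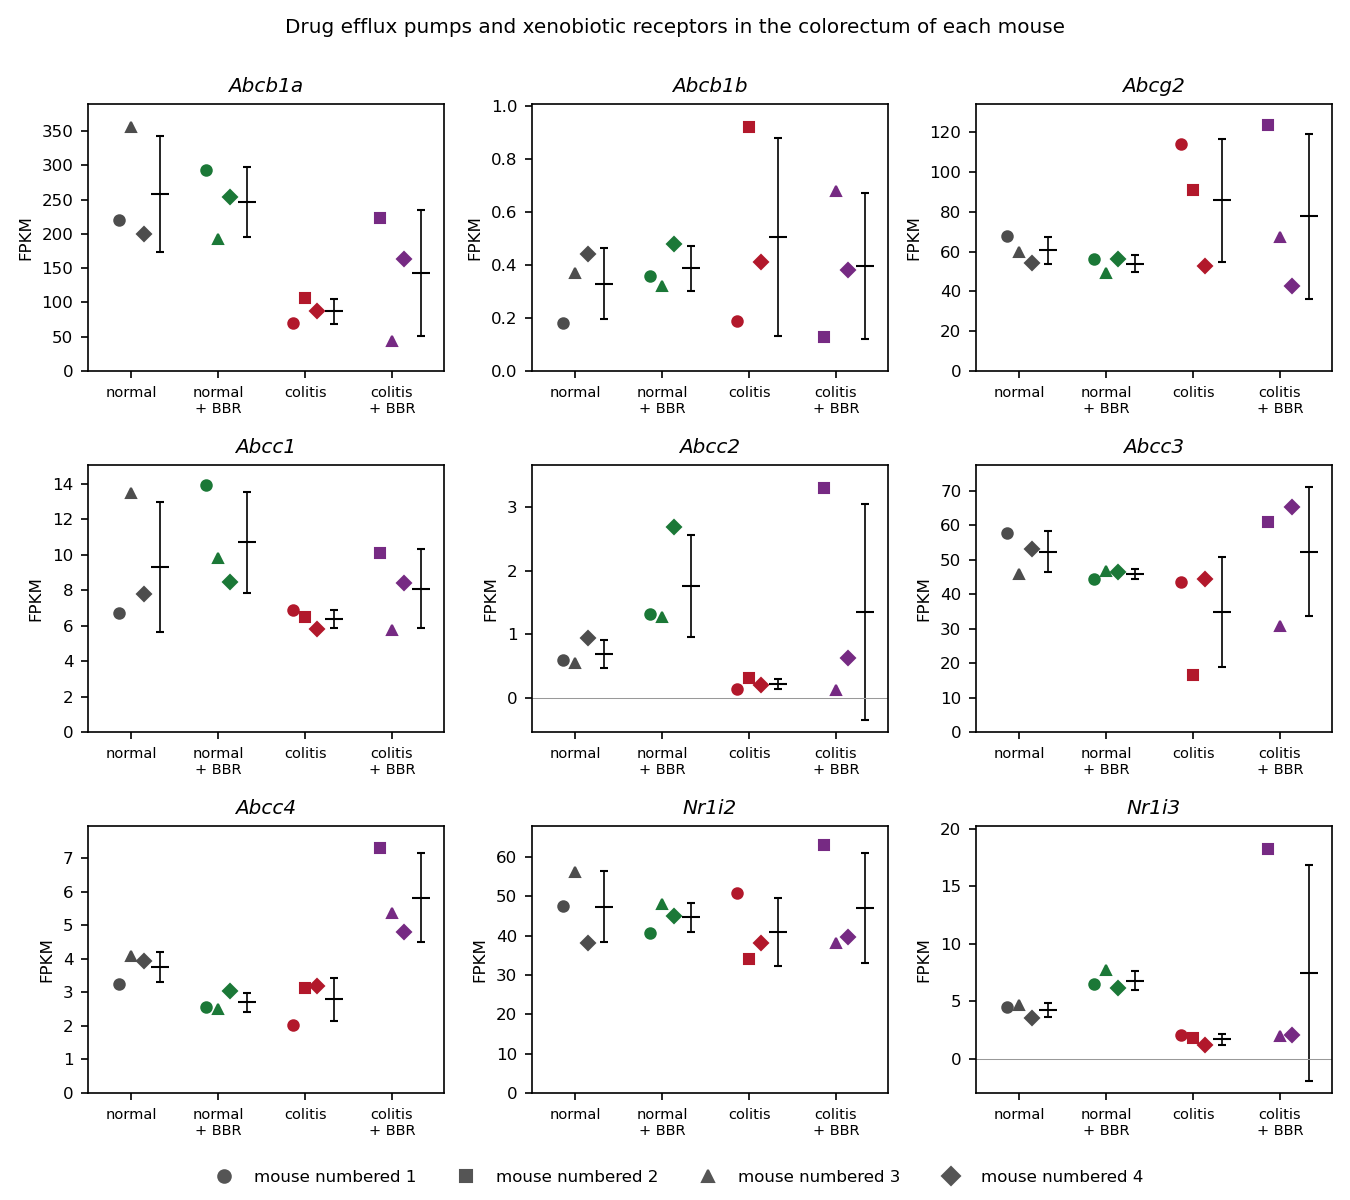
FPKM of the 9 genes in each mouse, with 1 panel per gene, 1 symbol per mouse number and a bar with whiskers for the mean ± SD of the 3 mice of a group, on linear axes. Abcb1a is lower in the 3 colitis mice (69.38 to 105.76 FPKM) than in all 6 mice without colitis, and Abcc4 is highest in the 3 colitis mice receiving BBR (4.79 to 7.31 FPKM).

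Abcb1a, which encodes the main intestinal P-glycoprotein of the mouse, was lower in colitis. The 3 normal mice had 220.63, 355.27 and 199.39 FPKM and the 3 colitis mice 69.38, 105.76 and 86.86 FPKM. The groups did not overlap, and the highest colitis value was below the lowest normal one. Abcb1a in colitis mice was 0.344-fold that in normal mice, with a 95% confidence interval of 0.163 to 0.729, a log2 fold change of −1.54 (standard error 0.49). It did not pass limma's adjusted limit in this comparison (adjusted p = 0.126, unadjusted p = 0.00933). With BBR in both groups, colitis gave −1.05 on the log2 scale, with an interval of −2.14 to 0.03 that includes 0 (limma adjusted p = 0.259). Between colitis and normal mice, an exact permutation test of 3 mice against 3 gave p = 0.1, the smallest that it allows. Of 18 alternatives Abcb1a passed in 1, the fit on the 6 mice of these groups alone (adjusted p = 0.0342), where 3.19% of all genes passed.

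Normal mice receiving BBR had 293.27, 192.31 and 253.77 FPKM of Abcb1a, within the range of normal mice but for 1 value below it, and colitis mice receiving BBR 223.22, 43.81 and 162.86 FPKM. The latter 3 spread more widely than any other group: the mice numbered 2 and 4 lay above all colitis mice, and the mouse numbered 3 below them all. The log2 fold change with BBR was 0.44 in colitis mice, with a 95% confidence interval of −0.64 to 1.52, and −0.04 in normal mice, with an interval of −1.12 to 1.04. The first was −0.03 without the mouse numbered 2 of colitis mice receiving BBR and 1.15 without the mouse numbered 3. The interaction (the difference between both effects) was 0.48, with an interval of −1.05 to 2.01.

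The 9 epithelial markers had a median log2 fold change of −0.06 between normal and colitis mice and the 7 markers of endothelium, where P-glycoprotein is also found, one of −1.12, with all 7 lower. These endothelial markers summed to 24.3 to 27.8 FPKM in normal mice and to 7.85 to 21.6 FPKM in colitis mice. Of the 8 colonocyte markers 5 were lower and 3 higher, with a median of −0.41, and their sum overlapped, with 8220 to 16800 FPKM in normal and 5850 to 21600 FPKM in colitis mice. Among them the anion exchanger gene Slc26a3, named after its values were seen, was at 803.42 to 1306.26 FPKM in normal mice and 361.38 to 546.87 FPKM in colitis mice, without overlap. Over the 12 mice, which share the differences between groups, Slc26a3 and Abcb1a had a Pearson's r of 0.902 and a Spearman's rho of 0.839, and the water channel gene Aqp8 and Abcb1a an r of 0.635 and a rho of 0.769, given with no test. No other colonocyte marker was correlated with Abcb1a. Among these markers Krt20 ranked 3, 2 and 5 and Ceacam1 4, 1 and 8 of 12 in the colitis mice, where 1 is the highest. The part of endothelium and colonocytes in the difference was not tested.

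Averaged over water and BBR, Abcb1a was 0.407-fold in the 6 colitis mice compared with the 6 mice without colitis (95% confidence interval 0.24 to 0.692, log2 fold change −1.30, limma adjusted p = 0.0381). In this average 5 of the 6 colitis mice were below all 6 others. An exact two-sided permutation test within water and within BBR gave p = 0.01, where 0.005 is the smallest possible, as 1 of 54 such tests on these genes. Abcb1a alone of the 9 genes passed the adjusted limit, beside 14.3% of all tested genes, or 11.4% that were lower. By unadjusted p-values of at most 0.05 there were 2 of the 9, Abcb1a and Abcc2, beside 39% of all genes. All genes together had a median of −0.36 on the log2 scale in this comparison, and relative to it Abcb1a was at −0.93. After centring each mouse on its median, Abcb1a was at −0.90 with an adjusted p of 0.152, and after quantile normalization at −1.25 with 0.0513. Centred on the epithelial markers, it was at −1.29 with an adjusted p of 0.0571, and without the mice numbered 4 at −1.48 with 0.0489. Abcb1a stayed lower in all 12 fits that left out 1 mouse, between −1.53 and −0.94, and passed the adjusted limit in 4 of them, those without colitis mouse number 4 or without 1 of the 3 colitis mice receiving BBR.

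**Figure D2:**
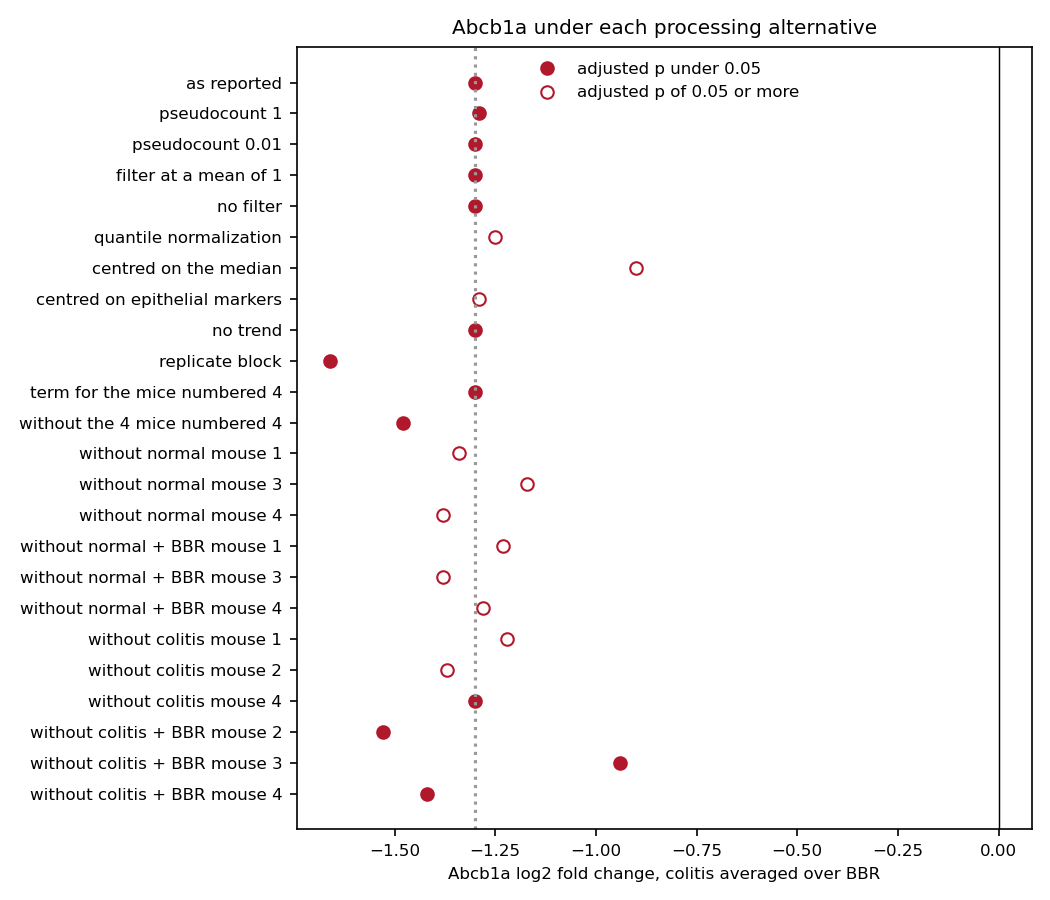
Log2 fold change of Abcb1a in 6 colitis mice against 6 mice without colitis under each way of processing, 1 point per setting, filled where limma's adjusted p was under 0.05. All points lie below 0, between −1.66 and −0.90, and 12 of the 23 alternatives keep the adjusted p under 0.05.

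Abcb1b encodes the second P-glycoprotein of the mouse. Its values were 0.18, 0.37 and 0.44 FPKM in normal mice, 0.36, 0.32 and 0.48 FPKM when they received BBR, 0.19, 0.92 and 0.41 FPKM in colitis mice, and 0.13, 0.68 and 0.38 FPKM when these received BBR. All 4 groups overlapped. Within a mouse, Abcb1a exceeded Abcb1b 453-fold to 1230-fold in normal mice, 115-fold to 365-fold with colitis and 64.4-fold to 1720-fold with colitis and BBR. Both messages are alike: of the 4257 stretches of 50 bases in the main GENCODE transcript of Abcb1b, 18% occur unchanged in that of Abcb1a, and 38.9% with at most 2 mismatches. A read of 50 bases from such a stretch fits both genes, so the low values of Abcb1b are uncertain. A rough estimate from the steps between low values puts 3 reads of Abcb1b at 0.0359 to 0.055 FPKM, and all 12 mice were above that. The fitted difference between colitis and normal mice was 0.36 on the log2 scale, with an interval of −0.83 to 1.55. With 1 mouse left out it ran from −0.11 to 0.80.

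Abcg2, the breast cancer resistance protein, exports urate, porphyrins and many drugs. Its values were 68.02, 59.83 and 54.50 FPKM in normal mice and 114, 90.87 and 52.76 FPKM in colitis mice. Colitis mice numbered 1 and 2 were above all normal mice, and the mouse numbered 4 was below them all. With BBR the values were 56.55, 49.03 and 56.16 FPKM in normal mice and 123.49, 67.39 and 42.50 FPKM in colitis mice, where again the mouse numbered 4 was lowest. Averaged over BBR, colitis gave a log2 fold change of 0.41 with an interval of −0.14 to 0.97 (limma adjusted p = 0.23). Without the mice numbered 4 it was 0.73 with an adjusted p of 0.0305, in a fit where 41.3% of all genes passed. In each normal mouse Abcb1a was 3.24 to 5.94 times as high as Abcg2, while in colitis mice this ratio of levels was 0.609 to 1.65, with no overlap. In colitis mice receiving BBR it was 1.81, 0.65 and 3.83, the last within the range of normal mice.

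Abcc1, a pump of glutathione conjugates and leukotriene C4, was at 6.68, 13.48 and 7.76 FPKM in normal mice and 6.85, 6.47 and 5.80 FPKM in colitis mice. The groups overlapped. It was at 13.92, 9.82 and 8.44 FPKM in normal mice and 10.11, 5.73 and 8.40 FPKM in colitis mice receiving BBR. Averaged over BBR, the log2 fold change of colitis was −0.44 with an interval of −0.92 to 0.03 (limma adjusted p = 0.148), close to the median of all genes.

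Abcc2, a luminal pump of bilirubin and drug conjugates, was a low message with wide differences. The values were 0.59, 0.55 and 0.94 FPKM in normal mice and 0.15, 0.31 and 0.20 FPKM in colitis mice, and the groups did not overlap. Normal mice receiving BBR had 1.32, 1.27 and 2.69 FPKM, all above the normal mice. Colitis mice receiving BBR had 3.30, 0.13 and 0.63 FPKM, the highest and the lowest of all 12 values. Averaged over BBR, colitis gave −1.20 on the log2 scale, with an interval of −2.36 to −0.03 (limma adjusted p = 0.122). That of BBR averaged over colitis was 1.29, with an interval of 0.12 to 2.46 (limma adjusted p = 0.954, unadjusted p = 0.0331; exact permutation p = 0.03). For BBR averaged over colitis 0 of all genes (0%) passed the adjusted limit and 757 (4.94%) the unadjusted one, Abcc2 being the 1 of the 9. Of the colitis mice receiving BBR, those numbered 2 and 3 decided these sizes. Without the mouse numbered 2, the colitis average of Abcc2 was −1.70 with an adjusted p of 0.0312, where 5.17% of all genes passed, and the BBR average 0.78. Without the mouse numbered 3 they were −0.73 (adjusted p = 0.245) and 1.76. The values of this low gene also depended on the scale, with a colitis average of −0.45 at a pseudocount of 1 and of −0.80 after quantile normalization or centring on the median (limma adjusted p = 0.229, 0.385 and 0.39). In colitis mice, the difference with BBR was 1.40 with all mice, 0.39 without the mouse numbered 2 and 2.33 without the mouse numbered 3 (limma adjusted p = 0.885, 1 and 0.145). With mouse number as a replicate block, colitis gave −1.95 in the average (adjusted p = 0.0167) and −2.16 against normal mice, where it was −1.31 without the block (adjusted p = 0.0497 and 0.316). In the fits with the block 16.1% and 4.79% of all genes passed. The mouse numbered 2 that received BBR and DSS also had the highest values of the 12 for 4 of the 8 colonocyte markers, Slc26a3 (1803.44 FPKM), Aqp8 (2935.01 FPKM), Car1 and Car4, and ranked between 3 and 10 for the other 4, and their part in the difference was not tested.

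Abcc3, a pump on the blood-facing membrane that passes bile acid and glucuronide conjugates, was at 57.70, 45.95 and 53.11 FPKM in normal mice and 43.62, 16.41 and 44.40 FPKM in colitis mice. The groups did not overlap, but the gap was small apart from colitis mouse number 2. The log2 fold change was −0.71 with an interval of −1.53 to 0.10, and −0.24 without that mouse. With BBR the values were 44.38, 46.86 and 46.59 FPKM in normal mice and 60.85, 30.91 and 65.37 FPKM in colitis mice.

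Abcc4, which exports cyclic nucleotides, prostaglandins and nucleotide analogues, was lower with BBR in normal mice and higher with BBR in colitis mice, without overlap in either. Normal mice had 3.25, 4.09 and 3.93 FPKM, and normal mice receiving BBR 2.56, 2.51 and 3.04 FPKM, all lower. Colitis mice had 2.04, 3.14 and 3.19 FPKM, and colitis mice receiving BBR 7.31, 5.37 and 4.79 FPKM, all higher than the other 9 mice. The log2 fold change with BBR was −0.46 in normal mice, with an interval of −1.04 to 0.12, and 1.04 in colitis mice, with an interval of 0.46 to 1.62. The latter did not pass limma's adjusted limit (adjusted p = 0.486, unadjusted p = 0.00213), and without any 1 of the 6 mice it was between 0.84 and 1.17. In the same comparison the granulocyte marker list had a median of −2.29, the smooth muscle list one of 1.5 and the colonocyte list one of 0.57, and their part in it was not tested. The difference between both effects of BBR was 1.5, with an interval of 0.68 to 2.32 (limma interaction, adjusted p = 1, unadjusted p = 0.00186). In the interaction 0 of all genes (0%) passed the adjusted limit, and 371 (2.42%) had an unadjusted p of 0.05 or less, Abcc4 being the 1 of the 9. Over all 23 alternatives this interaction lay between 1.21 and 1.78, and its adjusted p between 0.415 and 1. Abcc3 had the same signs (−0.18 in normal and 0.65 in colitis mice, interaction 0.83 with an interval of −0.32 to 1.98), and a difference between both genes was not tested. Opposite moves with BBR in normal and colitis mice, each without overlap, were found for 48 genes (0.313%), 1 of them Abcc4.

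Between the groups that received BBR, Abcc4 was 2.09-fold higher in colitis mice than in normal mice, with a 95% confidence interval of 1.4 to 3.12 (limma adjusted p = 0.201). It passed the adjusted limit without colitis mouse number 4 receiving BBR (adjusted p = 0.0301) and without all mice numbered 4 (0.0395), fits in which 14.7% and 15.8% of all genes passed. With all mice, 0 of the 9 genes passed the limit, where 0.0392% of all genes did, and Abcc4 was the single one whose groups did not overlap, with 20.2% of all genes, or 2.26% that were higher. Unadjusted p-values of at most 0.05 were found for 1 of the 9 genes, Abcc4, and for 3010 of all genes (19.7%).

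Nr1i2, the gene of PXR, varied least of the 9. It was at 47.42, 56.15 and 38.19 FPKM in normal mice, 40.66, 47.92 and 45.08 FPKM when they received BBR, 50.74, 33.96 and 38.15 FPKM in colitis mice, and 63.05, 38.23 and 39.66 FPKM when these received BBR. All groups overlapped. Colitis averaged over BBR gave a log2 fold change of −0.08, with an interval of −0.45 to 0.28, and that of BBR averaged over colitis 0.05, with an interval of −0.31 to 0.42. The colitis value was 0.06 after quantile normalization and reached 0.31 over the alternatives, 21 of 23 of which kept its sign. Differences within these intervals were not excluded by these comparisons of 6 mice against 6.

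Nr1i3, the gene of CAR, was lower than Nr1i2 in every mouse and varied far more. It was at 4.48, 4.68 and 3.52 FPKM in normal mice, 6.49, 7.73 and 6.12 FPKM in normal mice receiving BBR, and 2.07, 1.75 and 1.17 FPKM in colitis mice. These 3 groups did not overlap. Colitis mice receiving BBR had 18.26, 1.95 and 2.02 FPKM: 1 mouse, numbered 2, was above all others and the other 2 were at the level of colitis mice. The log2 fold change between colitis and normal mice was −1.32, with an interval of −2.77 to 0.13 (limma adjusted p = 0.263). With BBR it was 0.67 in normal mice, with an interval of −0.78 to 2.12, and 1.32 in colitis mice, with an interval of −0.13 to 2.77. The last value was 0.28 without the mouse numbered 2 that received BBR, and at most 1.86 without any other mouse. Averaged over BBR, colitis gave −0.99 for Nr1i3 (limma adjusted p = 0.137), which was −1.52 with an adjusted p of 0.00648 without that mouse numbered 2, and −1.49 with 0.0424 with the replicate block, fits in which 5.17% and 16.1% of all genes passed. It was −0.73 (0.287) without the mouse numbered 3 and −0.74 (0.207) without the mouse numbered 4 of the colitis mice receiving BBR, and −0.60 after quantile normalization (0.49) or centring on the median (0.513). BBR averaged over colitis gave 1.00 for Nr1i3, with an interval of −0.03 to 2.02 (limma adjusted p = 1, unadjusted p = 0.0554; exact permutation p = 0.015), and 0.47 without that mouse numbered 2. The ratio of Nr1i2 to Nr1i3 levels was 10.6 to 12 in normal mice, 6.2 to 7.37 with BBR alone and 19.4 to 32.6 with colitis alone. With colitis and BBR it was 3.45, 19.6 and 19.6, from below the range with BBR alone into that of colitis mice.

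Read across the 9 genes, colitis mice differed from normal mice without overlap in 5 (Abcb1a, Abcc2, Abcc3, Abcc4 and Nr1i3), all lower, where 22.2% of all genes were lower without overlap. The difference of Abcc4 was −0.44 as fitted, −0.10 after centring on the median and −0.02 after quantile normalization (limma adjusted p = 0.335, 0.9 and 0.983). None of the 9 passed limma's adjusted limit, as against 1.08% of all genes, and 1, Abcb1a, was within the unadjusted limit of 0.05, as against 21.4%. All genes had a median of −0.32 on the log2 scale in this comparison, which moved to −0.05 after quantile normalization. With BBR in colitis mice, 0 of all 15315 genes (0%) passed the adjusted limit and 978 (6.39%) the unadjusted limit, Abcc4 being 1 of them. Abcc4 was also the 1 gene of the 9 without overlap, where 1.42% of all genes were higher without overlap. With BBR in normal mice, 0 of all genes (0%) passed, 208 (1.36%) lay at or under the unadjusted limit with none of the 9 among them, and 3 of the 9 did not overlap (Abcc2 and Nr1i3 higher, Abcc4 lower), as did 9.62% of all genes. The comparisons share mice, since colitis mice enter with and without BBR and normal mice enter both colitis against normal and BBR against none.

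**Figure D3:**
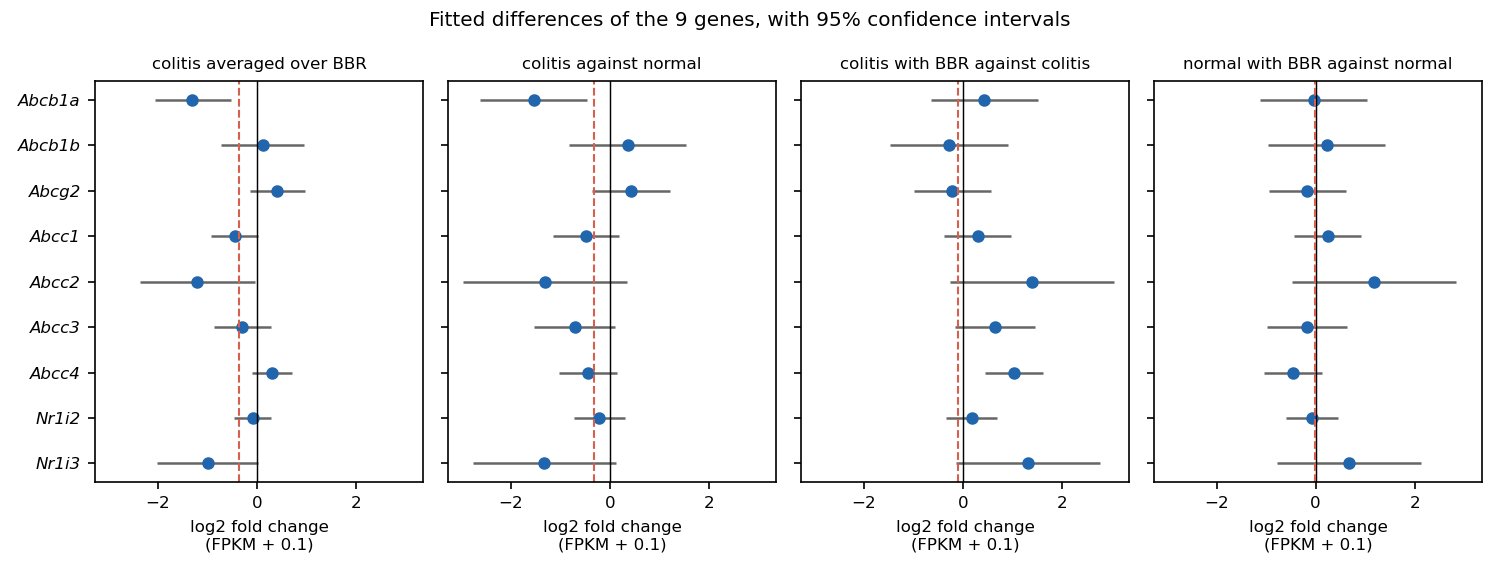
Log2 fold changes of the 9 genes in 4 comparisons (points) with 95% confidence intervals (lines) from limma, where the solid line is 0 and the dashed line the median of all tested genes. The interval of Abcb1a lies below 0 for colitis against normal and for colitis averaged over BBR. That of Abcc2 lies below 0 for colitis averaged over BBR (−2.36 to −0.03), and that of Abcc4 above 0 (0.46 to 1.62) for BBR in colitis mice.

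The rest of the transport and drug response system was described by lists of other ABC transporters, uptake transporters, genes known as targets of PXR and CAR, receptor partners and membrane scaffold proteins, with all values from the average of colitis over BBR, where 14.3% of all genes passed. Of 23 tested drug metabolism genes, 17 were lower and 6 of these passed the adjusted limit, with a list median of −0.65 against −0.36 for all genes. Gstm1, a glutathione transferase, was at 238.69 to 390.96 FPKM in normal mice, 128.49 to 282.53 FPKM with BBR, 32.47 to 95.6 FPKM with colitis and 28.16 to 146.17 FPKM with both. It fell by 2.12 in the average (limma adjusted p = 0.016). Sult1a1, a phenol sulfotransferase, fell by 2.47 (limma adjusted p = 0.0246), with 204 ± 80.1 FPKM in normal mice and 42.2 ± 25.7 FPKM in those with colitis alone (SD, n = 3 each). Gstm3 fell by 1.71 and Aldh1a7, an aldehyde dehydrogenase, by 1.56 (limma adjusted p = 0.0459 and 0.0233). Aldh1a7 was also the single gene of these lists past the adjusted limit between colitis and normal mice, at −2.34 (limma adjusted p = 0.0477). By the rounded adjusted p this call was kept in 5 of 18 alternatives. At a pseudocount of 1 that p rounded to 0.05, and the unrounded one was under the limit. The call was lost in all 6 fits without 1 mouse (adjusted p between 0.056 and 0.199). Cyp3a13, the intestinal member of the Cyp3a drug oxidases, was named after its values were seen: its log2 fold change was −0.79 (limma adjusted p = 0.062). Cyp2b10, a classic CAR target in liver, was under the filter, at 0 in all colitis mice receiving BBR and at 0.09 to 0.13 FPKM in normal mice receiving BBR, and is also named after its values were seen.

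Of 20 receptor partners 19 were lower, 5 past the adjusted limit, and 1 was higher and passed, with a median of −0.66. Hnf4a, a nuclear receptor that drives many enterocyte genes, was at 264 ± 22.7 FPKM in normal mice and 158 ± 49.5 FPKM with colitis alone (SD, n = 3 each), and fell by 0.68 in the average (limma adjusted p = 0.0476). The coactivator Ncoa3 fell by 0.76 and the lipid sensor Ppara by 1.51 (limma adjusted p = 0.0371 and 0.0485). Nr1h4, the bile acid receptor FXR, rose by 0.78 (limma adjusted p = 0.0372), with 39.7 ± 8.51 FPKM in normal mice and 82.2 ± 21.3 FPKM with colitis alone (SD, n = 3 each). Rxra, the pairing partner of both receptors, was at 20.24 to 25.92 FPKM in normal mice and 8.79 to 20.04 FPKM with colitis alone. Its averaged difference was −0.67 on the log2 scale (limma adjusted p = 0.0785), and it is named after its values were seen.

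Of 17 other ABC transporters 12 were lower and 2 passed, with a median of −0.54: Cftr, the chloride channel of crypt cells, fell by 1.57 and Abcg3 by 0.90 (limma adjusted p = 0.033 and 0.0419). Without the mice numbered 4, Abcg3 was at −0.83 with an adjusted p of 0.0778. The other 14 genes named here passed, in a fit where 41.3% of all genes passed. Of 19 uptake transporters 13 were lower and 3 passed, with a median of −0.23. Slco2b1, an organic anion carrier, fell by 1.42 and the nucleoside carrier Slc29a1 by 0.95, while the carnitine carrier Slc22a21 rose by 0.71 (limma adjusted p = 0.0238, 0.0363 and 0.0428). Of 6 scaffold genes, 2 passed, with a median of −0.35: Slc9a3r2 fell by 1.52 and Rdx, radixin, by 0.97 (limma adjusted p = 0.028 and 0.0485). List directions depended in part on the scaling: after centring on the median, the list median was −0.26 for drug metabolism genes and for receptor partners (12 of 23 and 15 of 20 lower) and −0.15 for other ABC transporters, but 0.17 for uptake transporters, 0.04 for scaffold genes and 0.09 for the 9 pumps and receptors, beside 0.03 for all genes. After quantile normalization that of uptake transporters was 0.07 and that of the 9 genes −0.10, beside −0.04 for all genes. The receptor partners that were lower and passed went from 5 to 0 under quantile normalization, centring on the median and centring on the epithelial markers, and the drug metabolism genes from 6 to 3, 2 and 5. Of these 15 named genes, 6 stayed past the limit after centring on the median, 7 after quantile normalization, 7 after centring on the epithelial markers, 10 with the replicate block (without Cftr, Slc22a21, Gstm3, Hnf4a and Ppara), and between 1 and 15 in the 12 fits without 1 mouse. Of all genes 6.69%, 8.34%, 6.71%, 16.1% and between 2.08% and 38.8% passed in these fits, in that order. In the same comparison the lists of endothelial and smooth muscle markers had medians of −1.03 and −2.40 and that of granulocyte markers 4.51, and their part in these results was not tested. In the comparisons of BBR, 0 genes of these 5 lists passed the adjusted limit, like 0% of all genes.

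**Figure D4:**
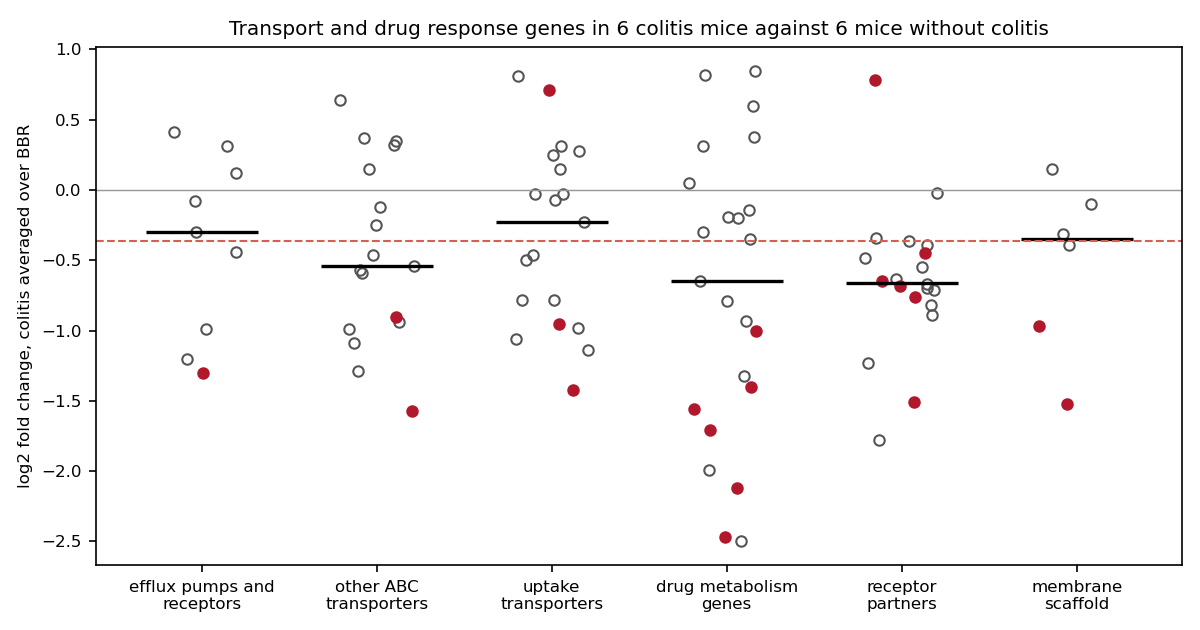
Log2 fold change of each tested gene in 6 colitis mice against 6 mice without colitis, for the 9 genes and the 5 lists of related genes, filled red where limma's adjusted p was under 0.05, with a black bar for the median of each list and a dashed line for that of all genes (−0.36). Most receptor partners lie below 0 (19 of 20, and 15 of 20 after centring on the median), and the 9 genes spread between −1.30 and 0.41.

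Which genes had the most similar profiles over the 12 mice was described by Pearson's r of log2(FPKM + 0.1) among 11943 genes with a mean of at least 1, with no test. The points share the mice, their column totals and the differences between groups. Abcb1a was most like Arl4d (r = 0.952, Spearman's rho = 0.909), Oxct1 (r = 0.949), a ketone-using enzyme of mitochondria, and the calcium pump gene Atp2b1 (r = 0.949). Abcg2 was most like Mep1b (r = 0.945, rho = 0.678), Stfa2l1 (r = 0.898) and Cdhr2 (r = 0.89, rho = 0.923), of which Mep1b and Cdhr2 encode brush border proteins. For Abcc1 the closest was Cyp3a13 (r = 0.904, rho = 0.923), followed by Max (r = 0.876) and Tmem236 (r = 0.862). Abcc2 was closest to Adamtsl5 (r = 0.961, rho = 0.965), Fbxo33 (r = 0.925) and Bco1 (r = 0.92). Abcc3 was closest to Naprt (r = 0.954, rho = 0.818), Sorl1 (r = 0.952) and Mavs (r = 0.916). The profile of Abcc4 had looser neighbours, D6Ertd527e (r = 0.82, rho = 0.729), Adora1 (r = 0.818) and Rhov (r = 0.799). Nr1i2 was most like Zfp385b (r = 0.91, rho = 0.902), Mterf2 (r = 0.892) and Mfsd9 (r = 0.884), and Nr1i3 most like Vamp4 (r = 0.961, rho = 0.949), Srr (r = 0.947) and Radx (r = 0.936). Among the 9 genes themselves, Abcc2 and Nr1i3 had the highest r (0.877, rho = 0.818), followed by Abcb1a and Abcc1 (r = 0.804, rho = 0.832). By rho, Abcc1 and Nr1i3 (0.839, r = 0.677) and Abcb1a and Abcc1 came before Abcc2 and Nr1i3. Abcc4 had no r above 0.245 with any of the other 8.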

How the data were processed

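Colorectal RNA of 12 mice was sequenced, and 1 deposited table of 17734 genes with 1 column per mouse was used. By the methods, RNA was depleted of ribosomal RNA and read as single-end reads of 50 bases, filtered with SOAPnuke, aligned with Bowtie2 and quantified with RSEM. The submitters' processing notes give Bowtie2 2.2.5, RSEM 1.2.12 and the build mm9, and the labels name another library kit than the methods. The authors deposited values with 2 decimals that were read as FPKM, which is an inference, since TPM would look alike. No scaling between mice was added. Read totals were not used here. In steps between low values, 54.7% to 73.5% of values per mouse fell within 0.2 of whole reads, where evenly spread values give 40%, so depth and the 3-read floor are rough estimates, which cover counting error only.

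Mice were grouped by the titles of their labels. The 15315 genes averaging 0.1 or more were fitted as log2(FPKM + 0.1) with limma 3.58.1 (R 4.3.3) as 4 group means, with empirical Bayes, a trend on mean level and Benjamini-Hochberg adjustment over all of them. This scale understates changes of low genes. The colitis and BBR averages give both strata equal weight. The fit was tested on simulated data. Exact permutation tests, profiles and figures came from Python 3.11.15 (pandas 2.3.3, NumPy 2.4.6, matplotlib 3.10.9, SciPy 1.17.1). As alternatives, the pseudocount was set to 1 or 0.01 and the filter raised to 1 or dropped, mice were scaled by quantiles, by their median or by epithelial markers, the fit was cut to the compared groups, run without the trend, with a replicate block, with a term for the mice numbered 4 or without them, and each mouse was left out in turn. In normal mice with and without BBR, deviations of mice of the same number from their group means had r = 0.29, 0.11 and 0.66 in the 3 pairs. Across numbers, the mice numbered 1 and 3 had r = 0.37 and 0.46, and pairs with 1 mouse numbered 4 had −0.53 to −0.34. The block changed no call there.

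The 9 genes, the lists and the marker lists were chosen with earlier results of these data known. Named genes are the 9, up to 4 called genes of each list (those with the largest change and a mean of at least 1 where more were called), and for each of the 9 with a mean of at least 1 the 3 closest profiles. Promoter windows came from RefSeq (GRCm38.p6) and transcripts from GENCODE vM21. No coordinates were carried over from mm9.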

Additional observations from a re-analysis of the deposited data

Results flagged for a closer look

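The effect of BBR on Abcc4 pointed in opposite directions in normal and in colitis mice. All 3 normal mice receiving BBR were below all 3 normal mice, and all 3 colitis mice receiving BBR were above all 3 colitis mice. The difference of both effects was 1.5 on the log2 scale, and it did not pass limma's limit (interaction adjusted p = 1 over 15315 genes, unadjusted 0.00186). The sign of the interaction was kept in all 23 alternatives. Abcc4 was flagged for this lack of overlap, so fits that left out mice or changed the pseudocount could not turn that sign. The same crossing without overlap was found for 48 genes (0.313%).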

How the results depend on the processing

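Over the alternatives, the count of the 9 genes past the adjusted limit moved as follows. Between colitis and normal mice it was 0, and 1 in the compared groups alone (Abcb1a), 1 with the replicate block (Abcc2, adjusted p = 0.0497) and 1 by the unadjusted limit. For colitis averaged over BBR it was 1 (beside 14.3% of all genes), and 0 after centring on the median (6.69%) or on the epithelial markers (6.71%). It was 3 with the replicate block (Abcb1a, Abcc2 and Nr1i3, beside 16.1% of all genes) and 2 without the mice numbered 4 (Abcb1a and Abcg2, beside 41.3%). It was 2 by the unadjusted limit (39%) and 0 to 3 with 1 mouse left out (2.08% to 38.8%). After quantile normalization the 1 gene was Abcc4, higher at 0.73 (adjusted p = 0.0486, beside 8.34% of all genes). As fitted, Abcc4 was at 0.31 in this average (adjusted p = 0.222). Between the groups receiving BBR it was 0, with 1 without the mice numbered 4, 0 to 1 with 1 mouse left out and 1 by the unadjusted limit, each Abcc4. By the unadjusted limit it was also 1 for BBR in colitis mice and for the interaction (Abcc4) and 1 for BBR averaged over colitis (Abcc2). The cause of these moves was not tested.

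Over all genes the adjusted count of colitis against normal was 165 and ran from 71 to 1412, and from 11 to 211 with 1 mouse left out. For colitis averaged over BBR it was 2188 and ran from 1025 to 6210, and from 319 to 5944. Between the groups receiving BBR it was 6 and ran from 0 to 2380, the latter without the mice numbered 4, and from 0 to 2256 with 1 mouse left out, the latter without colitis mouse number 4 receiving BBR. The next highest of these 6 fits had 2. For BBR in colitis mice it was 0 and reached 4, and 59 with 1 mouse left out. Over the 13 pairs of mice with the same number in different groups, deviations from the group means correlated in 12 above 0.1 and in 1 at 0.08. Their mean r was 0.34, or 0.21 without the mice numbered 4. The 41 pairs of different numbers had a mean r of −0.1, with 10 above 0.1. Deviations were thus on average more alike within a number than between numbers. The numbers were still not taken as a pairing, and the replicate block is only an alternative here. The block changed no other call of the 9 genes. With it, 3 receptor partners passed in place of 6 for colitis averaged over BBR, where 16.1% of all genes passed. Of the 6 drug metabolism genes called there, 3 were lost (Gstm2, Ugt2b34 and Gstm3), while 8 of that list passed in all. Between colitis and normal mice, 4 passed in place of 1, beside 4.79% of all genes.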
